A study of Mus musculus with 9 samples.

Results

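Counts were examined for 10 genes of the extracellular matrix: the small leucine-rich proteoglycans biglycan (Bgn), decorin (Dcn) and lumican (Lum), fibronectin (Fn1), the thrombospondins Thbs1 and Thbs2, connective tissue growth factor (Ccn2), periostin (Postn), osteonectin (Sparc) and tenascin C (Tnc). They were chosen by gene symbol, and all 10 were found among the 55536 genes of the count table. The RNA came from mouse primary myoblasts, cells that divide and then fuse into skeletal muscle fibres, with floxed Uqcrfs1 alleles. The gene encodes the Rieske iron-sulphur protein of mitochondrial complex III. The 9 libraries formed 3 groups of 3. Knockout oxybutynin cells (uqcrfs1 -/-) had received an adenovirus for Cre and then 7.5 µM oxybutynin, a muscarinic receptor antagonist. Knockout vehicle cells (uqcrfs1 -/-) had received the Cre virus and DMSO. Floxed vehicle cells (uqcrfs1 +/+) had received an adenovirus for GFP and DMSO. Seeding followed infection by 72 h, treatment began 24 h after seeding, and culture went on for 5 days in medium with 20% horse serum. Genotype went together with the virus given, and there was no floxed group with oxybutynin. Nothing in the labels says that replicates came from separate cultures or animals, so p-values reflect library-to-library spread alone, and that spread may be technical.

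Matricellular proteins are secreted into the matrix but act mainly as signals rather than as scaffold. They bind integrins, growth factors and collagen, and many are induced during tissue repair. Small leucine-rich proteoglycans carry a leucine-rich core protein that binds collagen fibrils and growth factors such as TGF-beta. In skeletal muscle these proteins are made by myoblasts, fibroblasts and fibro-adipogenic cells, and they are known from regenerating and fibrotic muscle.

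The targeted gene matched the labels in all 9 libraries. Uqcrfs1 held 71, 69 and 46 counts in knockout oxybutynin, 51, 51 and 70 in knockout vehicle, and 1539, 1781 and 1881 in floxed vehicle libraries. Its level was 32.4-fold lower in knockout vehicle than in floxed vehicle (log2 fold change -5.02 ± 0.13 SE, edgeR quasi-likelihood adjusted p = 7.54e-14). Library totals ran from 19604971 to 26226949 counts. Myoblast markers were present in every library, with Pax7, Myod1 and other genes of a 10-gene list summing to 5354 to 5595 CPM (counts-per-million of the scaled library total) in knockout oxybutynin, 4533 to 5489 in knockout vehicle and 4686 to 4867 in floxed vehicle. Of those 10 genes 3 rose and 4 fell in knockout vehicle against floxed vehicle, near the 29.9% higher and 33.4% lower of all tested genes. Des (0.43 ± 0.10), Vcam1 (0.33 ± 0.08) and Pax7 (0.26 ± 0.07) were higher. Megf10 (-0.94 ± 0.08), the cadherin gene Cdh15 (-0.88 ± 0.10), Myog (-0.55 ± 0.09) and Myf5 (-0.39 ± 0.09) were lower. With a GC and length trend removed, as described below, 3 were higher and 5 lower, and Myf5 was among the higher (0.35). Des (-0.05) and Pax7 (-0.13) were then not called, and Myod1 (-0.25) and Itga7 (-0.54) were among the lower. Knockout vehicle replicate 3 resembled the oxybutynin libraries more than the other vehicle-treated knockout libraries, with Pearson correlations of log2 CPM of 0.992 to 0.993 against 0.990 and 0.986. Knockout vehicle replicate 2 lay nearest the floxed libraries of all knockout libraries (0.951 to 0.953). Ribosomal RNA took 10.8 to 14.0% of counts in knockout oxybutynin, 7.63 to 11.8% in knockout vehicle and 7.70 to 8.33% in floxed vehicle. Genes of mitochondrial ribosomal RNA were in both that share and the mitochondrial share given next. Mitochondrial transcripts took 1.58 to 2.12%, 1.95 to 2.71% and 3.07 to 3.14% in the same groups, and Rn7sk 3.36 to 3.98%, 2.36 to 3.59% and 1.93 to 2.10%. The part of these shares in the values below was not tested.

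Together the 10 genes took 0.807 ± 0.0467% of all counts in knockout oxybutynin, 0.789 ± 0.0380% in knockout vehicle and 0.682 ± 0.0139% in floxed vehicle (SD, n = 3 libraries each, as for every CPM mean). Per kilobase of exon, Sparc was the highest of the 10 in each group, at 588, 515 and 427 CPM per kb in knockout oxybutynin, knockout vehicle and floxed vehicle. It ranked 30 of 12982 tested protein-coding genes in all 3 groups. In knockout oxybutynin the order below Sparc was Fn1 (312 CPM per kb), Tnc (218), Thbs1 (75.4), Bgn (24.9), Ccn2 (16.3), Thbs2 (5.17), Postn (0.219), Dcn (0.0182) and Lum, listed at 0. Knockout vehicle had the same order, with Fn1 at 285, Tnc at 213 and Thbs1 at 87.7 CPM per kb. In floxed vehicle Tnc (239) came after Sparc, then Thbs1 (189) and Fn1 (183), whose ranges overlapped, and then Bgn (8.02), Ccn2 (5.02), Thbs2 (1.52), Postn (0.132) and Dcn (0.0209). Thbs1 ranked 463 in knockout oxybutynin and 342 in knockout vehicle, against 106 in floxed vehicle. Bgn ranked 1673 and 1510 in the same knockout groups, against 4939 in floxed vehicle. The only other neighbours in the order whose ranges overlapped were Dcn and Lum in knockout oxybutynin.

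The first comparison was knockout vehicle against floxed vehicle. These groups differ in both genotype and virus, so the part of each cannot be told apart. Bgn, Thbs2, Ccn2, Fn1, Postn and Sparc were higher in knockout vehicle and Thbs1 was lower. Of the 10 genes 8 had enough counts to be tested, and 7 of these passed an adjusted p of 0.05, 6 higher and 1 lower. Of all 15720 genes tested, 63.3% passed, 29.9% higher and 33.4% lower. All 8 genes had no overlap between the groups, as did 66.7% of all tested genes. Their median log2 fold change was 0.71, against -0.01 over all tested genes, with values from -1.11 (Thbs1) to 1.85 (Thbs2). The genes were chosen with earlier results of these data known, so this median is a description only. In bulk RNA, fewer cells of a type and less RNA per cell cannot be told apart.

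**Figure D1:**
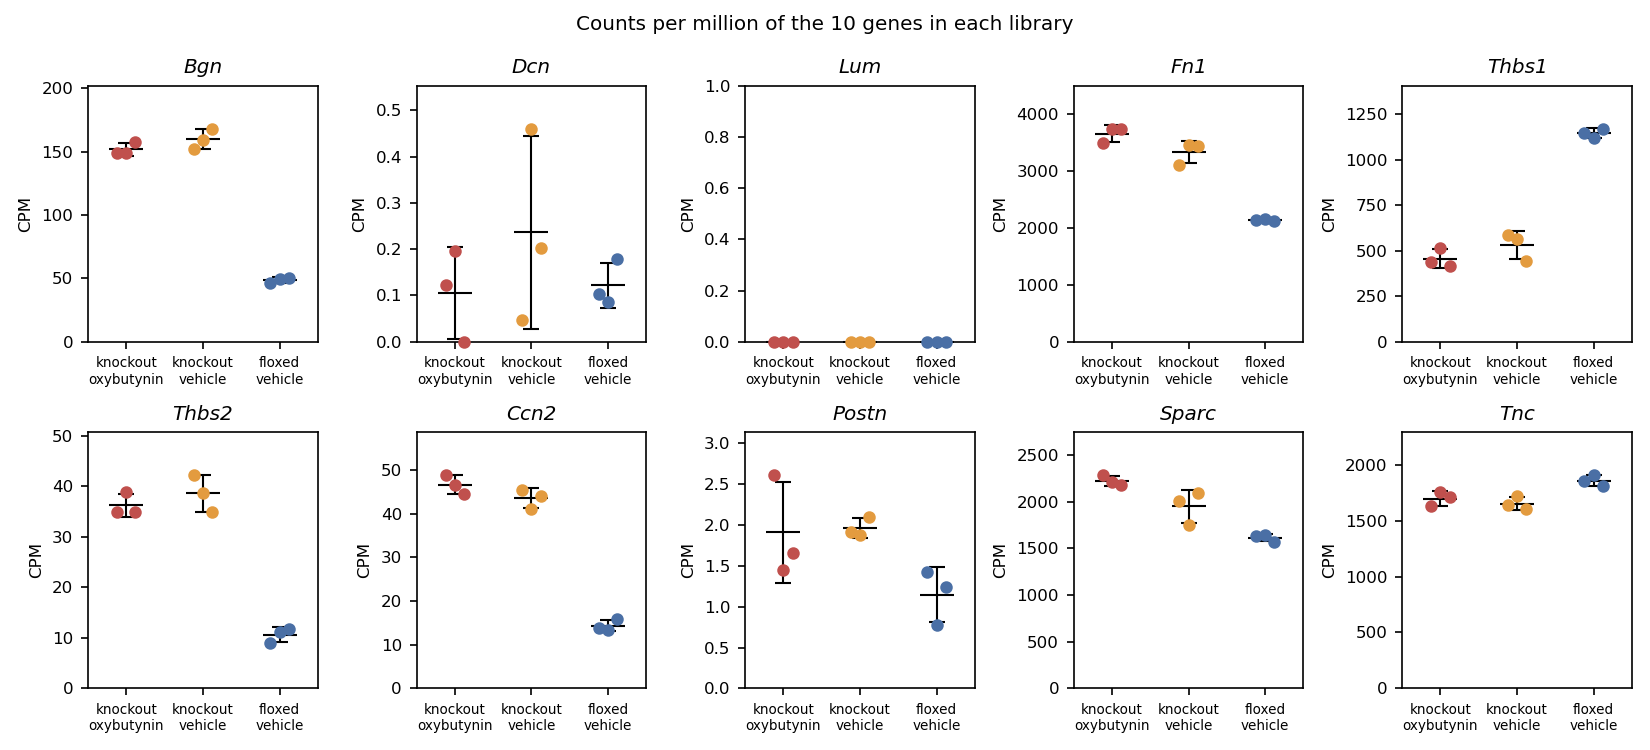
CPM (linear axis, from 0) of each of the 10 genes in each library, 1 panel per gene with its own scale; points are libraries, the long line is the group mean and the bars are 1 SD (n = 3). Bgn lies between 149 and 168 CPM in all 6 knockout libraries and between 46.3 and 50.4 CPM in floxed vehicle, Thbs1 lies the other way, and Lum is at 0 throughout.

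Among the proteoglycans, only Bgn was expressed at a testable level. Biglycan is a proteoglycan with chondroitin or dermatan sulphate chains that is also known as a signal to the innate immune system. The gene (ENSMUSG00000031375) lies on the plus strand of chromosome X from 73483602 to 73495933 (GRCm38). Bgn had 149, 149 and 158 CPM in knockout oxybutynin, 152, 159.5 and 168 CPM in knockout vehicle, and 46.3, 49.9 and 50.4 CPM in floxed vehicle. All 6 knockout libraries lay far above the floxed ones, and the knockout groups overlapped each other. It rose 3.27-fold in knockout vehicle against floxed vehicle (log2 fold change 1.71 ± 0.08, adjusted p = 1.94e-11).

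Decorin, the closest relative of biglycan in this set, and lumican, a keratan sulphate proteoglycan, were near or at 0. Dcn had 3, 5 and 0 counts in knockout oxybutynin, 1, 11 and 5 in knockout vehicle, and 2, 2 and 4 in floxed vehicle. Summed over a group this gave 0.108 CPM (95% exact Poisson interval 0.0466 to 0.213) in knockout oxybutynin, 0.248 CPM (0.145 to 0.398) in knockout vehicle and 0.122 CPM (0.0528 to 0.241) in floxed vehicle. These intervals overlap and cover counting error only. Lum was listed at 0 in all 9 libraries, where 3 counts would be 0.114 to 0.153 CPM in a single library and 0.0144 CPM over all of them. Both genes sit in a cluster on the plus strand of chromosome 10, Dcn from 97479609 to 97518143 and Lum from 97565128 to 97572703, 46984 bases apart. Kera and Epyc, the next proteoglycan genes of that cluster, were also at 0 in every library.

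Fibronectin, the glycoprotein that integrins assemble into the early matrix of repair, had the highest CPM of the 10 genes in all 3 groups. Fn1 (chromosome 1, 71585520 to 71653200, minus strand) had 3478, 3737 and 3724 CPM in knockout oxybutynin, 3096, 3448 and 3429.7 CPM in knockout vehicle, and 2140.3, 2161 and 2109 CPM in floxed vehicle. All 6 knockout libraries were above all floxed ones. It rose 1.56-fold in knockout vehicle (0.64 ± 0.08, adjusted p = 1.42e-06). Fn1 took 44.1% of the CPM of the 10 genes in knockout oxybutynin and 43.2% in knockout vehicle, against 31.3% in floxed vehicle. The annotation lists 17 transcripts, which gene counts do not separate.

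The thrombospondins moved in opposite directions. Both form trimers, bind the receptors CD36 and CD47 and restrain blood vessel growth, and thrombospondin 1 also activates latent TGF-beta. Thbs1 (chromosome 2, 118111876 to 118127133, plus strand) had 439, 515 and 419 CPM in knockout oxybutynin, 586, 566 and 445 CPM in knockout vehicle, and 1150.1, 1122 and 1172 CPM in floxed vehicle. Every knockout library was below every floxed one, and the knockout vehicle libraries were spread more widely than the floxed libraries. It fell 2.16-fold in knockout vehicle (-1.11 ± 0.10, adjusted p = 5.7e-08). Thbs2 (chromosome 17, 14665500 to 14694235, minus strand) had 34.9, 38.9 and 34.9 CPM in knockout oxybutynin, 42.2, 38.7 and 34.8 CPM in knockout vehicle, and 8.94, 11.1 and 11.8 CPM in floxed vehicle. The knockout groups overlapped each other and not the floxed group. It rose 3.62-fold in knockout vehicle (1.85 ± 0.12, adjusted p = 5.23e-10). For every 100 CPM of Thbs1 there were 7.20, 6.84 and 7.82 CPM of Thbs2 in knockout vehicle, against 0.777, 0.991 and 1.01 CPM in floxed vehicle.

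The promoter windows of Bgn and Thbs2, which had the largest rises as counted among the genes with a window, are shown with that of Tnc, which was not called. They hold the 250 bases before a RefSeq start (GRCm38.p6) and are written 5′ to 3′ on the gene's strand. Of the 10 genes 5 matched the RefSeq table, namely Bgn, Thbs2, Tnc, Sparc and Postn. Ccn2, Thbs1, Fn1, Dcn and Lum had no window and were not searched. Capitals mark SP1 letters (GGGCGG) and E-box letters (CAGCTG) in Bgn, SMAD letters (CAGAC) and TATA letters in Thbs2, and SP1 and TATA letters (TATAAA) in Tnc, each on either strand. The windows are Bgn chrX:73483351-73483600 on the plus strand, Thbs2 chr17:14694263-14694512 on the minus strand and Tnc chr4:64047016-64047265 on the minus strand.
Bgn: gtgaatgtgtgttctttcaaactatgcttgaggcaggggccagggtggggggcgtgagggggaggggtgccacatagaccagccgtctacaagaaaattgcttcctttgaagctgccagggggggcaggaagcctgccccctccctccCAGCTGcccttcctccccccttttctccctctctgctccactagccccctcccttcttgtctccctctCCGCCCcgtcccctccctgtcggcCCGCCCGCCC
Thbs2: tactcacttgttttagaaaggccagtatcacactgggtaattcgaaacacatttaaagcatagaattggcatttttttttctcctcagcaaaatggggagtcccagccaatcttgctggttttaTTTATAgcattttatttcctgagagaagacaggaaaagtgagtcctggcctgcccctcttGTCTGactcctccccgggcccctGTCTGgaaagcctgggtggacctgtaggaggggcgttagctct
Tnc: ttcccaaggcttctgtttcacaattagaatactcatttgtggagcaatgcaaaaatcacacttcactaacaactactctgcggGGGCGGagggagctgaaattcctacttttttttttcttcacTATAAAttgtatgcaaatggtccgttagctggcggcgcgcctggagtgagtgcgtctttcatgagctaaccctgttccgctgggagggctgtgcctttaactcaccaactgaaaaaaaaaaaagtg
Bgn held 3 SP1 matches, starting 34, 10 and 6 bases before the start of the transcript, of which the last 2 overlap. Thbs2 held 2 SMAD matches, 66 and 43 bases before it, and a TATA match 126 bases before it. SMAD letters were not particular to Thbs2. They were also in another Tnc window (70 bases before its end), in Sparc (35) and in a Postn window (191), none of them shown. Of 32851 promoter windows of the same length, 32.7% hold the SP1 letters, 13% the E-box letters, 42.2% the SMAD letters and 12.4% the TATA letters. The letters searched for TEAD (GGAATG), AP-1 (TGANTCA) and the CArG box were not in the 7 windows of these 5 genes. They are in 12.6%, 6.75% and 1.47% of all windows, in that order. Ccn2 had no window, so whether its promoter holds these letters is not known here. A match of letters is a description of the sequence and shows no binding.

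Connective tissue growth factor, a matricellular protein that binds integrins and growth factors and a textbook target of YAP and TEAD, rose. Ccn2 (chromosome 10, 24595442 to 24598683, plus strand) had 48.8, 46.7 and 44.4 CPM in knockout oxybutynin, 45.5, 41.1 and 44.0 CPM in knockout vehicle, and 13.9, 13.4 and 15.8 CPM in floxed vehicle. The 6 knockout libraries lay close together and well above the floxed ones. The rise in knockout vehicle was 3.03-fold (1.60 ± 0.10, adjusted p = 3.59e-10).

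Periostin, which binds collagen and promotes its crosslinking, was scarce. Postn (chromosome 3, 54361109 to 54391037, plus strand) had 64, 37 and 37 counts in knockout oxybutynin, 41, 45 and 52 in knockout vehicle, and 28, 18 and 28 in floxed vehicle. These were 2.61, 1.46 and 1.66 CPM in knockout oxybutynin, 1.91, 1.88 and 2.11 CPM in knockout vehicle, and 1.43, 0.773 and 1.24 CPM in floxed vehicle. Neither knockout group overlapped floxed vehicle, though the lowest knockout oxybutynin and the highest floxed library nearly met, and the knockout groups overlapped each other. It rose 1.72-fold in knockout vehicle (0.79 ± 0.28, adjusted p = 0.0224). The call was lost without floxed vehicle replicate 2 (0.56, adjusted p = 0.125) and without knockout vehicle replicate 3 (0.74, adjusted p = 0.0679).

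Osteonectin, a collagen- and calcium-binding glycoprotein, was abundant and changed little. Sparc (chromosome 11, 55394500 to 55423183, minus strand) had 2286, 2213 and 2180.4 CPM in knockout oxybutynin, 2004, 1756 and 2090.0 CPM in knockout vehicle, and 1634, 1647 and 1569 CPM in floxed vehicle. The 3 groups did not overlap. It rose 1.21-fold in knockout vehicle (0.27 ± 0.08, adjusted p = 0.00737), a call that was lost with the GC and length trend removed (-0.059, adjusted p = 0.369). Tenascin C, a large glycoprotein of repairing tendon and muscle that loosens cell adhesion, was close to even. Tnc (chromosome 4, 63959785 to 64047015, minus strand) had 1627, 1755 and 1711 CPM in knockout oxybutynin, 1639.5, 1717 and 1601 CPM in knockout vehicle, and 1853, 1907 and 1813 CPM in floxed vehicle. Every knockout library was below every floxed one, and the difference in knockout vehicle missed the threshold (-0.17 ± 0.07, adjusted p = 0.0553). Tnc was called lower by limma-voom (adjusted p = 0.0307) and by edgeR without knockout vehicle replicate 2 (adjusted p = 0.0175). Tnc overlaps the opposite-strand gene 8030451A03Rik, which held 81 to 167 counts, and Fn1 overlaps Apol7d, which held 5 to 25. Whether counting used strand is not stated in the labels, so reads of such overlapping pairs cannot be told apart.

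Fold changes of all genes followed the base composition of their transcripts. Over 12976 protein-coding genes, which do not count as replicates, log2 fold change and GC content had a Spearman correlation of 0.542 for knockout vehicle against floxed vehicle. Of the 8 tested genes 7 lay between 48.4% (Thbs2) and 53.5% GC (Fn1), near the median of 49.8%, and Postn lay at 36.3%. The 146 tested protein-coding genes within 1 percentage point of the GC content of Postn had a median log2 fold change of -1.27 (quartiles -1.62 and -0.67), while Postn was at 0.79. For Sparc the genes of like GC had a median of 0.27, and Sparc was also at 0.27. For Bgn that median was 0.21, for Ccn2 0.07, for Thbs1 0.12, for Tnc 0.27 and for Thbs2 -0.0038. For Fn1 it was 0.30 with an upper quartile of 0.66, and Fn1 at 0.64 lay within the quartiles.

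A further fit took out, library by library, the dependence of counts on GC content and exon length. There 5 of the 8 genes were called higher and 2 lower, where 59.1% of all genes were called, 28.3% higher and 30.8% lower. Bgn (1.51), Thbs2 (1.87), Ccn2 (1.47), Fn1 (0.50) and Thbs1 (-1.23) kept their direction and call. Postn came to 2.12 ± 0.31, Sparc was no longer called (-0.06 ± 0.05, adjusted p = 0.369) and Tnc was called lower (-0.38 ± 0.06, adjusted p = 4.47e-05). Because this trend ignored the groups, any group difference that itself follows GC content or length was taken out as well.

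**Figure D2:**
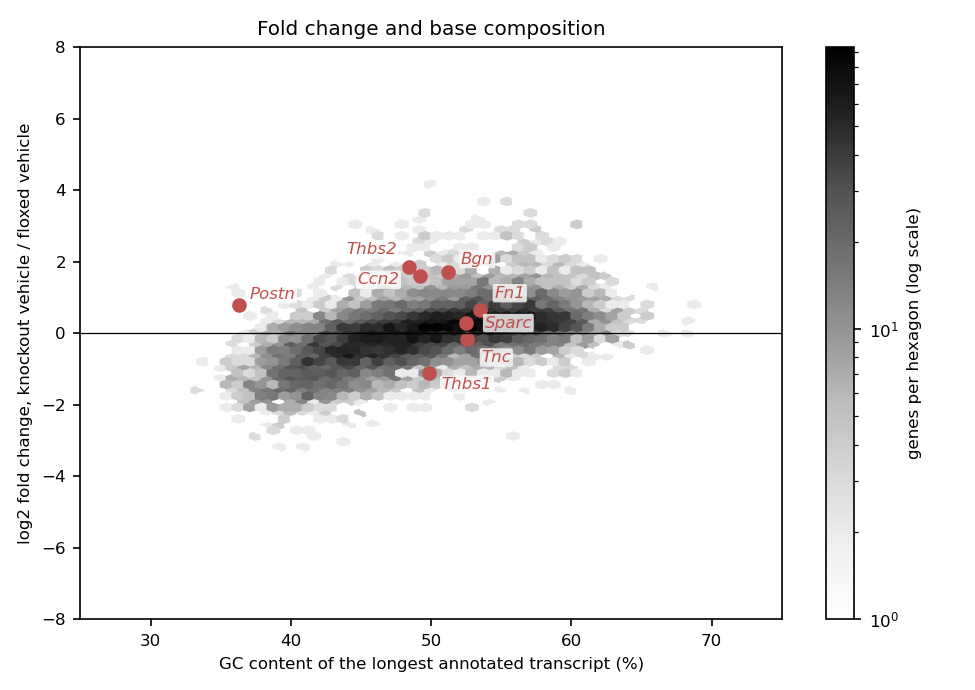
Log2 fold change of knockout vehicle against floxed vehicle (y axis) by GC content of the longest annotated transcript in percent (x axis); grey hexagons count protein-coding genes on a log scale and red points are the 8 tested genes. Postn, at 36.3% GC and 0.79, lies above the bulk of genes of like GC, Sparc lies within it at 0.27, and Thbs1 lies below it at -1.11.

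To address what oxybutynin did in the knockout cells, knockout oxybutynin was compared with knockout vehicle. None of the 8 tested genes was called by edgeR's quasi-likelihood test, DESeq2 or limma-voom, with 1 adjusted p not given by DESeq2. Of all tested genes edgeR called 0.0127%, or 2 genes, with 0.00636% higher and 0.00636% lower, limma-voom called 0.0191% and DESeq2 called 7.23%. At an unadjusted p under 0.05 there were 2 of the 8, Thbs1 and Sparc, and 26% of all tested genes, so the share is that of the background. Sparc averaged 2226 ± 54.0 CPM in knockout oxybutynin and 1949.9 ± 174 CPM in knockout vehicle (0.19 ± 0.08, 95% interval 0.02 to 0.36, edgeR adjusted p = 0.154). Thbs1 averaged 458 ± 50.6 CPM in knockout oxybutynin and 532 ± 76.4 CPM in knockout vehicle (-0.22 ± 0.10, 95% interval -0.43 to -0.0025, edgeR adjusted p = 0.188). With the GC and length trend removed Sparc was at 0.10 (95% interval -0.02 to 0.22, edgeR adjusted p = 0.439). Thbs1 was then at -0.19 (95% interval -0.36 to -0.01, edgeR adjusted p = 0.331). Without knockout vehicle replicate 3, the library nearer the treated ones, Sparc was called higher (0.24 ± 0.07, edgeR adjusted p = 0.0231) and Thbs1 lower (-0.33 ± 0.08, edgeR adjusted p = 0.013). In that fit 11.6% of all tested genes were called higher and 14.4% lower, 4188 genes in all. Leaving out the vehicle library most like the treated ones tends to widen the difference, so these calls are no separate evidence. In 17 of 18 alternative fits neither Sparc nor Thbs1 was called.

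The intervals of the other genes bound what these libraries could hide. For Bgn the log2 fold change was -0.07 with a 95% interval of -0.23 to 0.08, and for Fn1 it was 0.13 with an interval of -0.03 to 0.29. Ccn2 was at 0.10 (-0.09 to 0.29), Thbs2 at -0.09 (-0.31 to 0.14) and Tnc at 0.04 (-0.12 to 0.19). Postn, with few counts, had the widest interval, from -0.59 to 0.51. Sparc and Fn1 had no overlap between the knockout groups, 2 of the 8, as did 22.1% of all tested genes. In this comparison GC content and log2 fold change of protein-coding genes had a Spearman correlation of 0.690. Genes of like GC had a median log2 fold change of 0.09 for Sparc and 0.12 for Fn1.

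**Figure D3:**
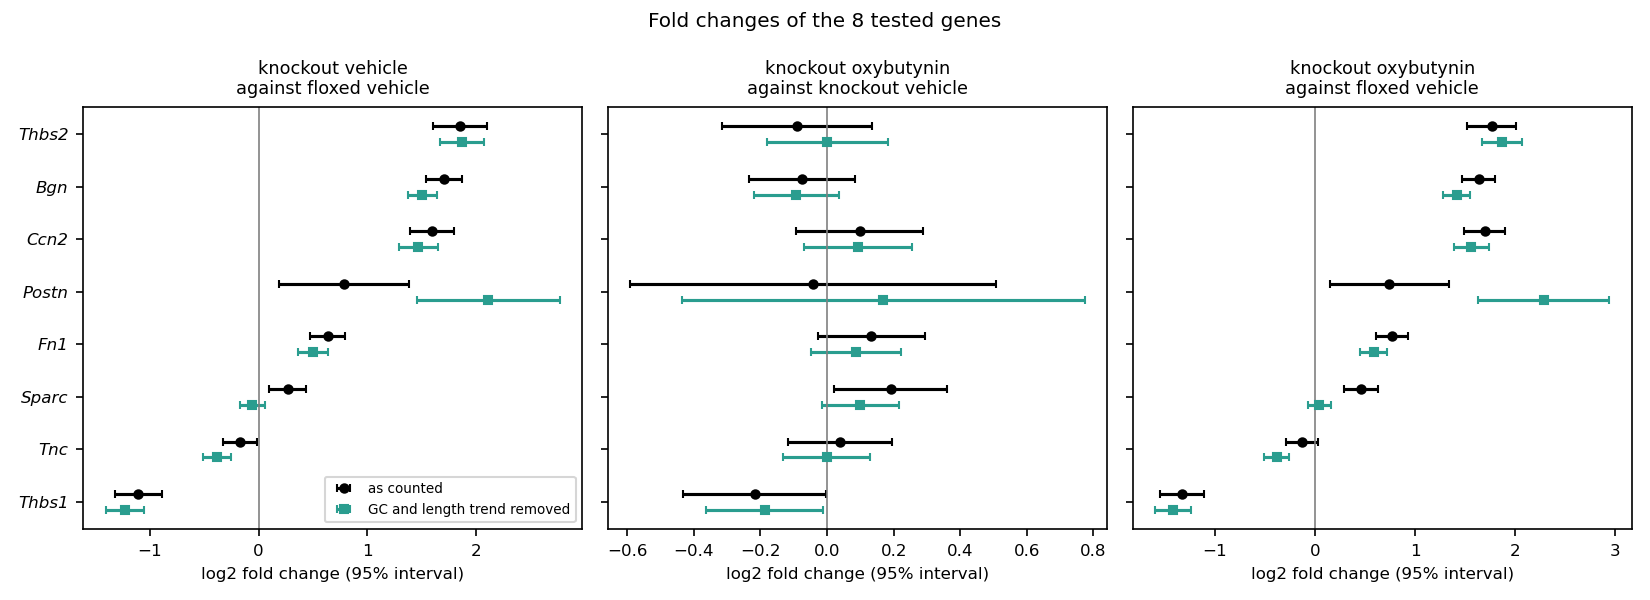
Log2 fold changes with 95% intervals of the 8 tested genes in the 3 comparisons, each panel on its own x axis; black circles are the counts as deposited and green squares the fit with the GC and length trend removed. The middle panel spans a narrower range than the others, and the interval of Postn, -0.59 to 0.51 as counted, covers most of it.

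Knockout oxybutynin was also compared with floxed vehicle. It shares the floxed libraries with the first comparison, so its values stand beside the earlier ones and are no separate evidence. Of the 8 tested genes 6 were higher and 1 lower, where 71.9% of all tested genes were called, 35.1% higher and 36.9% lower. All 8 had no overlap between the groups, as did 78.9% of all tested genes. With the GC and length trend removed 5 were higher and 2 lower, where 62% of all genes were called, 29.8% higher and 32.2% lower. Thbs2 was 3.40-fold higher in knockout oxybutynin (1.77 ± 0.12), Ccn2 3.24-fold (1.70 ± 0.10) and Bgn 3.11-fold (1.64 ± 0.08). Fn1 was 1.71-fold higher (0.77 ± 0.08), Sparc 1.38-fold (0.46 ± 0.08, or 0.04 and not called with the GC and length trend removed) and Postn 1.68-fold (0.74 ± 0.28, or 2.28 ± 0.31 with the trend removed). Thbs1 was 2.51-fold lower (-1.33 ± 0.10), and Tnc was not called (-0.13 ± 0.07, edgeR adjusted p = 0.124), but was called lower with the trend removed (-0.38 ± 0.06, edgeR adjusted p = 3.76e-05). The Postn call (edgeR adjusted p = 0.026) was lost in DESeq2 (0.052), without floxed vehicle replicate 2 (0.142) and without knockout oxybutynin replicate 1 (0.185).

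Among the genes themselves, the most alike patterns over the 9 libraries were those of Bgn and Ccn2. Likeness was measured as the root mean square difference of centred log2 CPM, which was 0.117 for this pair, 0.150 for Bgn and Thbs2 and 0.163 for Thbs2 and Ccn2. Thbs1 and Thbs2 were the least alike of the 28 pairs, at 1.44. Among 8843 protein-coding genes of at least 10 CPM on average, the nearest to Bgn were Tspan7 (0.07) and Nmnat3 (0.09), and the nearest to Ccn2 were Nmnat3 (0.08) and Gsn (0.09). Phyh (0.11) and Vldlr (0.14) were nearest to Thbs2, and Hmgb2 (0.06) and Sh3rf1 (0.07) to Thbs1. Usp22 (0.04) and Pigq (0.05) were nearest to Fn1, Gorasp2 (0.02) and Rnf187 (0.03) to Sparc, and Proser1 (0.03) and Pogz (0.03) to Tnc. Differences are smaller for genes that vary less, such as Sparc and Tnc, and Postn was below 10 CPM.

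Other matrix genes were counted in 9 lists for knockout vehicle against floxed vehicle, where 29.9% of all tested genes were higher and 33.4% lower, and 28.3% and 30.8% with the GC and length trend removed. The lists' counts stand beside those shares and were given no test of their own. Fibulins and other matrix glycoproteins rose in 13 of 17 tested cases and fell in 2, with a median log2 fold change of 1.11, or 0.61 with 10 higher and 2 lower when the GC and length trend was removed. Aebp1, a collagen-binding protein, was at 2.77 ± 0.13, and Fbln5, an elastic fibre protein, was at 2.67 ± 0.12. Fbln5 averaged 20.3 ± 0.857 CPM in knockout vehicle and 3.18 ± 0.120 CPM in floxed vehicle. Other matricellular proteins held 5 higher and 1 lower of 10 tested, with Fstl1 (1.14 ± 0.08) and Ccn1 (0.58 ± 0.10), which belongs to the same family as Ccn2, higher and Ccn4 (-0.80 ± 0.10) lower. Spp1, the most abundant gene of that list, was not called (-0.25 ± 0.12, edgeR adjusted p = 0.0652). It averaged 2812 ± 586 CPM in knockout vehicle and 3354 ± 105 CPM in floxed vehicle. The list summed to 2969 to 4048 CPM in knockout vehicle and 3867 to 4056 CPM in floxed vehicle, most of it Spp1. With the trend removed that list held 6 higher and 1 lower, and Spp1 was called higher (0.31). Of the other small leucine-rich proteoglycans 4 of 14 could be tested, and Tsku (0.98 ± 0.09) and Podn (0.97 ± 0.20) rose while Ogn fell (-1.81 ± 0.15). With the trend removed Tsku was at 0.52, Podn at 0.51 and Ogn at -0.62. The median of these proteoglycans was 0.56, and 0.08 with the trend removed.

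Large and cell-surface proteoglycans held 8 higher and 4 lower of 13, and 6 higher and 4 lower with the trend removed. The hyaluronan-binding Vcan was lower (-1.25 ± 0.09, or -0.50 with the trend removed). The basement membrane genes Agrn (0.63, or 0.32) and Hspg2 (0.59, or 0.38) were higher. Enzymes that build the chondroitin and dermatan sulphate chains of biglycan and decorin held 9 higher and 5 lower of 22, about the share called over all genes. The linker enzyme B4galt7 (1.00 ± 0.10, or 0.57 with the trend removed) was higher and the epimerase Dsel (-1.46 ± 0.18, or -0.64) lower. The median of this list was 0.24, and -0.06 with the GC and length trend removed. Crosslinking and processing enzymes rose in 11 of 16 cases and fell in 3, among them the transglutaminase Tgm2 (2.77 ± 0.20) and the lysyl oxidases Loxl4 (1.97 ± 0.16) and Loxl2 (1.62 ± 0.13). Their median was 0.53, and 0.24 with 8 higher and 2 lower when the trend was removed.

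Receptors of the 10 proteins held 6 higher and 6 lower of 16, and 10 higher and 2 lower with the GC and length trend removed. The integrin gene Itgb5 (1.67 ± 0.10) and the endocytic receptor gene Lrp1 (0.94 ± 0.08) rose, and Itga4 (-1.87 ± 0.12) and Met (-1.41 ± 0.09) fell. With the trend removed these were at 1.18, 0.83, -0.84 and -1.07 in that order. Targets of YAP and TEAD, to which Ccn2 belongs, held 11 higher and 6 lower of 21, and 5 higher and 8 lower with the trend removed. Nt5e (1.69) was higher and Rbms3 (-1.30) lower, and Ankrd1 was not called (-0.22). With the trend removed Nt5e was at 1.80, Rbms3 at -0.38 and Ankrd1 at -0.25, then called lower. Genes of the TGF-beta response held 8 higher and 4 lower of 16 (median 0.29), and 6 higher and 4 lower with the trend removed (median 0.04). Tagln (1.96 ± 0.14, or 1.67 with the trend removed) was higher and the receptor gene Tgfbr1 (-2.14 ± 0.14, or -1.33) lower. With oxybutynin against vehicle in knockout cells, 0 of the 164 tested genes of these and the marker lists were called by edgeR and 0 by limma-voom. An unadjusted p under 0.05 was found for 50 of them, against 26% of all tested genes. DESeq2 called 14, with 50 adjusted p-values not given, against 7.23% of all tested genes.

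**Figure D4:**
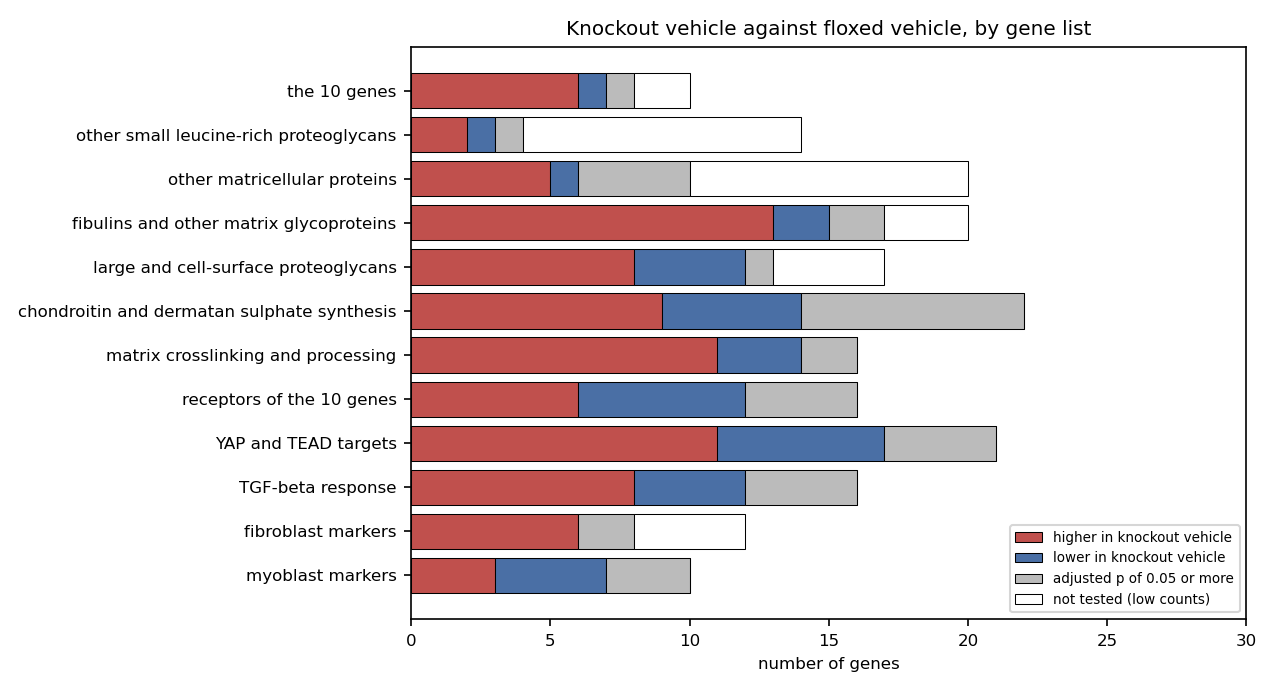
Number of genes (x axis) of each list that were higher, lower, not past the adjusted p of 0.05, or not tested for low counts in knockout vehicle against floxed vehicle. Fibulins and other matrix glycoproteins hold 13 higher and 2 lower genes, and receptors hold 6 of each.

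Some genes listed as markers of other cell types differed between the groups as well. Bulk counts do not show which cells made these transcripts. Of 12 fibroblast markers 8 could be tested, and 6 rose and 0 fell in knockout vehicle, or 5 and 0 with the GC and length trend removed. Of all tested genes 29.9% were higher and 33.4% lower, or 28.3% and 30.8% with the trend removed. Cd34 was at 2.30 ± 0.12 and Pdgfra was not called (0.26). The fibroblast markers summed to 37.0 to 38.9 CPM in knockout oxybutynin, 34.2 to 35.6 CPM in knockout vehicle and 12.8 to 13.4 CPM in floxed vehicle. Cd34 alone averaged 18.9, 17.6 and 3.58 CPM in these groups. Tcf21 was at 0 in all 9 libraries and Dpt had 1 count in all. Smooth muscle markers rose in 3 of 4 tested cases, and 3 were higher and 1 lower (Smtn, -0.50) with the trend removed. Myh11 had too few counts to test, and Cnn1, which was higher, averaged only 1.31 CPM in knockout vehicle. The smooth muscle markers summed to 1064 to 1215 CPM in knockout oxybutynin, 853 to 1151 CPM in knockout vehicle and 496 to 544 CPM in floxed vehicle. Most of this was Acta2 (1.03 ± 0.10), which averaged 1074, 972 and 477 CPM in these groups. Tenocyte markers summed to 15.1 to 15.99, 12.2 to 17.2 and 23.4 to 26.9 CPM in the same 3 groups, and Scx fell (-1.12). Leukocyte markers summed to 12.3 to 13.1, 10.8 to 12.5 and 5.21 to 6.002 CPM, nearly all of it Cd68, which was higher (1.19). Adgre1 was not called (-0.48), and Ptprc, Cd3e and Itgam had too few counts to test. Endothelial markers summed to at most 3.45 CPM, Schwann cell markers to at most 2.93 CPM and adipocyte markers to at most 0.163 CPM in any library. The part of these markers in the values of the 10 genes was not tested.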

How the data were processed

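RNA sequencing counts of 9 libraries in 3 groups of 3 were used. The authors deposited raw whole-number counts for each gene. As the labels' protocols state, RNA was purified with Trizol and directional libraries were made with a NEBNext kit. The builds GRCm38 and mm10 and the tools STAR 2.7.0e, Trim Galore 0.6.0, DESeq2 1.26.0, FastQC and cutadapt are named, per the submitters' processing notes. Counting step, strand setting and annotation release: not given in the sources used here. GENCODE M21 held all 55536 gene IDs, and 55450 had a symbol.

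Counts were tested with edgeR 4.0.16 in R 4.3.3: filterByExpr with a minimum count of 10 (15720 genes), TMM scaling, and the quasi-likelihood test on all 9 libraries with 1 mean per group. Benjamini-Hochberg values over all tested genes were called under 0.05. CPM divide counts by the TMM-scaled library total. Errors are SD for CPM and SE for log2 fold changes. The GC and length fit used natural splines of 5 degrees of freedom per library (15714 genes). Alternatives were DESeq2 1.42.0, limma-voom (limma 3.58.1), RLE scaling, library totals, other filters and thresholds, protein-coding genes only and leaving out each library. Named genes were Uqcrfs1, the 10 genes, up to 4 called genes per list with the lowest adjusted p with well-known uncalled ones, and the 2 nearest patterns of each gene. The 10 genes and the 17 other lists were chosen with earlier results of these data known. Reads were not analysed here.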

Additional observations from a re-analysis of the deposited data

How the results depend on the processing

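For the 8 tested genes, 409 of the alternative log2 fold changes kept direction and side of the threshold, 6 lost a call, 9 gained one and 8 changed sign. The sign changes were Tnc for oxybutynin against vehicle (-0.032 with library totals, -0.0015 with the GC and length trend removed), Postn for the same comparison (0.01 without knockout vehicle replicate 3, 0.13 and 0.05 without knockout oxybutynin replicates 2 and 3, 0.17 with the trend removed, and -0.34 to 0.13 over all libraries left out in turn), Thbs2 for the same comparison (3e-04 with the trend removed) and Sparc for knockout vehicle against floxed vehicle (-0.059 with the trend removed). The 2 genes called for oxybutynin against vehicle over the whole table became 1136 with DESeq2, 7 with RLE scaling, 158 with library totals, 1099 with no filter, 0 with the trend removed, 1 with protein-coding genes only and 0 at an adjusted p under 0.01, and 0 to 4188 when 1 library was left out; the cause was not tested. In that comparison 0 to 1 of the 8 genes were called higher and 0 to 1 lower when 1 library was left out. For knockout vehicle against floxed vehicle, 9957 genes were called, 6463 at 1.5-fold or more, and 8950 to 10994 when 1 library was left out. Of the 8 genes 2 in place of 1 were lower there with limma-voom, a mean of at least 1 CPM, the trend removed or protein-coding genes only, and 1 to 2 when 1 library was left out; the added gene was Tnc. Against floxed vehicle, knockout oxybutynin also had 2 lower with the trend removed and with protein-coding genes only. No paired analysis was possible because the labels give no replicate number shared between groups. Depth limits Dcn, Lum and Postn.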
